A study of Mus musculus with 9 samples.

Results

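The Ly6 genes examined here were Ly6d, Ly6k, Ly6e, Ly6a, Ly6c1 and Ly6c2, which are 6 of the 24594 genes in the table of bulk RNA sequencing values. They were taken by symbol. The set was selected on the RPKM of Ly6d, which was much higher in cells from antigen-expressing hosts and higher again in cells labelled as lacking Nr4a1 and Nr4a3, so its levels are given below as a description, with no test. The 5 other genes were tested across all genes.

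Ly6 proteins are small proteins with a compact disulfide-bonded fold, and most are tethered to the outer leaflet of the plasma membrane by a glycosylphosphatidylinositol (GPI) anchor. Many of their genes lie in 1 cluster and serve as surface markers of blood cell types: Ly6a encodes Sca-1, a marker of stem cells and activated lymphocytes that interferon induces, Ly6c1 and Ly6c2 encode the Ly6C antigens of monocytes and T cell subsets, and Ly6e encodes Sca-2 (TSA-1), a marker of immature thymocytes. Ly6d (ThB) marks thymocytes, B lineage cells and keratinocytes, and Ly6k is known from the testis, where it acts in sperm migration.

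The 9 libraries came from thymocytes carrying the OT-II T cell receptor, specific for an ovalbumin peptide. Every cell had developed in a mixed bone marrow chimera: a lethally irradiated host received OT-II Nr4a1-/- Nr4a3-/- marrow, OT-II Nr4a1+/+ Nr4a3+/+ marrow and marrow of non-transgenic wild-type mice together, and thymocytes were taken after 4.7 weeks. All cells were sorted as CD4+ CD8- CD69+ Valpha2+ VBeta5+, and regulatory T cells of these chimeras arose mostly from the non-transgenic donor. The comparisons asked how these genes differ between positive selection and encounter with a self-antigen, and whether that depends on Nr4a1 and Nr4a3.

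The OT-II group from wild-type (WT) BoyJ hosts had n = 2 libraries, and the group from the same hosts labelled Nr4a1-/- Nr4a3-/- (DKO) had n = 3. RIPmOVA hosts, an F1 of BoyJ and the transgenic line Tg(Ins2-TFRC/OVA)296Wehi/WehiJ on C57BL/6, carry membrane-bound ovalbumin under an insulin promoter that is also active in rare thymic epithelial cells. They gave n = 2 OT-II and n = 2 DKO libraries. By the labels, WT and RIPmOVA hosts also differ in strain, so antigen and host strain cannot be told apart in the host comparisons. The authors' methods, however, describe WT mice that were F1 progeny of the same RIPmOVA and BoyJ cross. OT-II control donors were an F1 of B6.Cg-Tg(TcraTcrb)425Cbn/J and BoyJ, whereas DKO donors were labelled C57BL/6. The genotype and the donor's background therefore cannot be told apart. OT-II and DKO libraries with the same number came from the same host mouse. DKO replicate 3 of the WT hosts had no OT-II partner among the libraries analysed here.

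Recovered depth was 15520000 to 25050000 reads per library. RPKM of Nr4a1 was 60.1 to 87.7 in DKO and 60.7 to 86.1 in OT-II libraries of WT hosts, and 282 and 235 in DKO and 260.0 and 229 in OT-II libraries of RIPmOVA hosts. Nr4a3, the other gene named as deleted, was 0.188 to 0.665 RPKM in DKO and 0.181 and 0.189 RPKM in OT-II libraries of WT hosts. In RIPmOVA hosts it was 16.5 and 14.1 RPKM in DKO against 5.66 and 3.72 RPKM in OT-II libraries, a difference (log2 1.63, SE 0.28, limma adjusted p = 0.024) that goes against the label. Reads over all exons of a gene do not separate a deleted part from the rest, so these values do not check the genotype, DKO below means the libraries labelled so, and each direction between genotypes rests on the labels. Summed RPKM of 10 markers of CD4 single-positive thymocytes (Cd3e, Cd4, Ccr7, Lck and others) was 1741 to 1989 in every library. Markers of CD8 T cells or of CD4+ CD8+ (double-positive) thymocytes were split between hosts. Cd8a was 1.76 to 7.60 RPKM, with at most 2.989 RPKM in WT hosts. Rag1 was at most 1.238 RPKM in WT and 2.936 RPKM in RIPmOVA hosts. In the same order of hosts, Rag2 was at most 0.085 and 0.849 RPKM and Ptcra at most 0.372 and 2.504 RPKM. Cd8b1 was 54.5 to 96.4 RPKM and Dntt 17.011 to 30.101 RPKM, both highest in WT hosts. The part of such cells in the Ly6 levels was not tested. Reads on sensory receptor genes, which thymocytes are not known to use and which are taken here as a measure of background, were highest in OT-II replicate 1 and DKO replicate 2 of WT hosts and in both DKO libraries of RIPmOVA hosts. They were 1043 to 1484 RPM in those 4 libraries and 293 to 552 RPM in the other 5.

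The genes sit in 349.9 kb of chromosome 15 (GRCm38). Ly6d (74762056 to 74763620, minus strand) is followed by Ly6k (74796874 to 74799986, minus strand), Ly6e (74955051 to 74959905, plus strand), Ly6a (74994877 to 74998031, minus strand), Ly6c1 (75044018 to 75048830, minus strand) and Ly6c2 (75108158 to 75111970, minus strand). All are protein-coding. Values are reads over all annotated exons of a gene, so they do not separate isoforms, exons or untranslated parts.

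Ly6c1 and Ly6c2 are near-identical copies, and their sequences are shown because reads could be assigned to either gene. Their coding sequences, read from the GENCODE annotation of GRCm38, are 393 bases each and are identical at 384 of them. The first 150 coding bases of each follow, from chr15:75047390-75048511 for Ly6c1 and chr15:75110548-75111667 for Ly6c2, minus strand, 2 exons joined. Capitals mark the 6 bases at which they differ.
Ly6c1: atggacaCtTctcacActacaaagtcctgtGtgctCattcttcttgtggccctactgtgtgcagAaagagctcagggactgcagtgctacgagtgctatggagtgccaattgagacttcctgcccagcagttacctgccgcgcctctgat
Ly6c2: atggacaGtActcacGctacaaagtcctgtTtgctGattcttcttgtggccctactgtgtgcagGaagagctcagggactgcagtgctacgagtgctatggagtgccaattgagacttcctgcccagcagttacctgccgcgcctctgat
All 6 lie toward the start, and the remaining stretch is shared. Over all transcripts, 10.14% of the distinct 100-base windows of Ly6c1 also occurred in Ly6a or Ly6c2, and 5.81% of those of Ly6c2 occurred in Ly6c1. The share was 1.45% for Ly6a and 0% for Ly6d and Ly6e. For Ly6k it was 18.49%, all with Gm17189, a gene annotated across it on the opposite strand, and the use of strand in counting was not stated. Values of Ly6c1, Ly6c2 and Ly6k are uncertain for these reasons.

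Ly6d had its highest levels in DKO cells from RIPmOVA hosts, where it was 365 and 197 RPKM. OT-II libraries of RIPmOVA hosts had 37.6 and 19.7 RPKM. In WT hosts it was 5.54 and 5.47 RPKM in OT-II and 6.61, 3.73 and 3.00 RPKM in DKO libraries. The 3 levels were separate, in that every library of RIPmOVA hosts was above every library of WT hosts and both DKO libraries of RIPmOVA hosts were above both OT-II libraries of those hosts. The WT-host groups overlapped.

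In WT hosts, the mean of Ly6d was 5.51 ± 0.0488 RPKM (SD, n = 2) for OT-II cells against 4.45 ± 1.91 RPKM (SD, n = 3) for DKO cells. In RIPmOVA hosts the means were 28.6 ± 12.7 (SD, n = 2) and 281 ± 119 RPKM (SD, n = 2). The ratio of the RIPmOVA mean to the WT mean was 5.19 in OT-II and 63.1 in DKO cells. On the log2(RPKM + 0.5) scale, the host difference was 2.20 (SE 0.40) in OT-II and 5.83 (SE 0.36) in DKO cells. The host difference in DKO cells exceeded that in OT-II cells by 3.62 (SE 0.54) on this scale. These values selected the gene and support nothing by themselves.

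Within each RIPmOVA chimera, the DKO library had 9.72 and 10.02 times the Ly6d RPKM of its OT-II partner, and for both genotypes the level was higher in chimera 1 than in chimera 2. Within the WT-host chimeras the same ratio was 1.19 and 0.682. Between genotypes in RIPmOVA hosts the log2 difference of Ly6d was 3.28 (SE 0.40), and in WT hosts it was -0.35 (SE 0.36). Each RIPmOVA library held at least 354 reads of Ly6d, so counting error was small beside the ratios of 9.72 and 10.02. The WT-host ratios of 1.19 and 0.682 rest on 56 to 120 reads per library, so this does not hold for them.

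Among other cells that express Ly6d, the reported B lineage and thymic epithelial markers were each at most 10.2 RPKM. Among B lineage markers, Pax5 was at most 0.096 RPKM in WT and 0.10 RPKM in RIPmOVA hosts, and Ebf1 at most 0.225 and 0.215 RPKM. The others reached more in RIPmOVA hosts. In the same order of hosts, Cd79a was at most 4.466 and 6.325 RPKM and Cd79b at most 1.138 and 2.994 RPKM. Blnk was at most 0.643 and 1.073 RPKM and Ms4a1 at most 0.784 and 1.005 RPKM. The 6 B cell markers reported summed to 3.05 to 6.765 RPKM in WT hosts, 5.004 and 10.03 RPKM in OT-II and 7.68 and 8.45 RPKM in DKO libraries of RIPmOVA hosts, and Cd79a made up the largest share. Keratin genes Krt5 and Krt14 were at most 0.166 and 0.278 RPKM and Aire, the regulator of tissue antigens in thymic epithelium, was at most 0.339 RPKM. The 8 thymic epithelial markers summed to 2.84 to 5.67 RPKM in WT hosts, 5.12 and 7.35 RPKM in OT-II and 8.52 and 12.2 RPKM in DKO libraries of RIPmOVA hosts. Epcam, which carried most of that sum, rose in DKO cells from RIPmOVA hosts (log2 fold change 1.47, SE 0.24, limma adjusted p = 0.013), a call lost without DKO replicate 3 of WT hosts or DKO replicate 1 of RIPmOVA hosts. The part of such cells in the Ly6d level was not tested.

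Background reads also moved with the group in which Ly6d was highest. They were 1043 and 1484 RPM in DKO and 552 and 293 RPM in OT-II libraries of RIPmOVA hosts, a wider range than the 414 to 1135 RPM of WT hosts. With background as a covariate, the log2 difference of Ly6d between genotypes in RIPmOVA hosts was 3.16 (SE 0.63). The part of background in the Ly6d level was not tested. In bulk samples a larger share of cells with a transcript and more transcript per cell cannot be told apart.

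**Figure D1:**
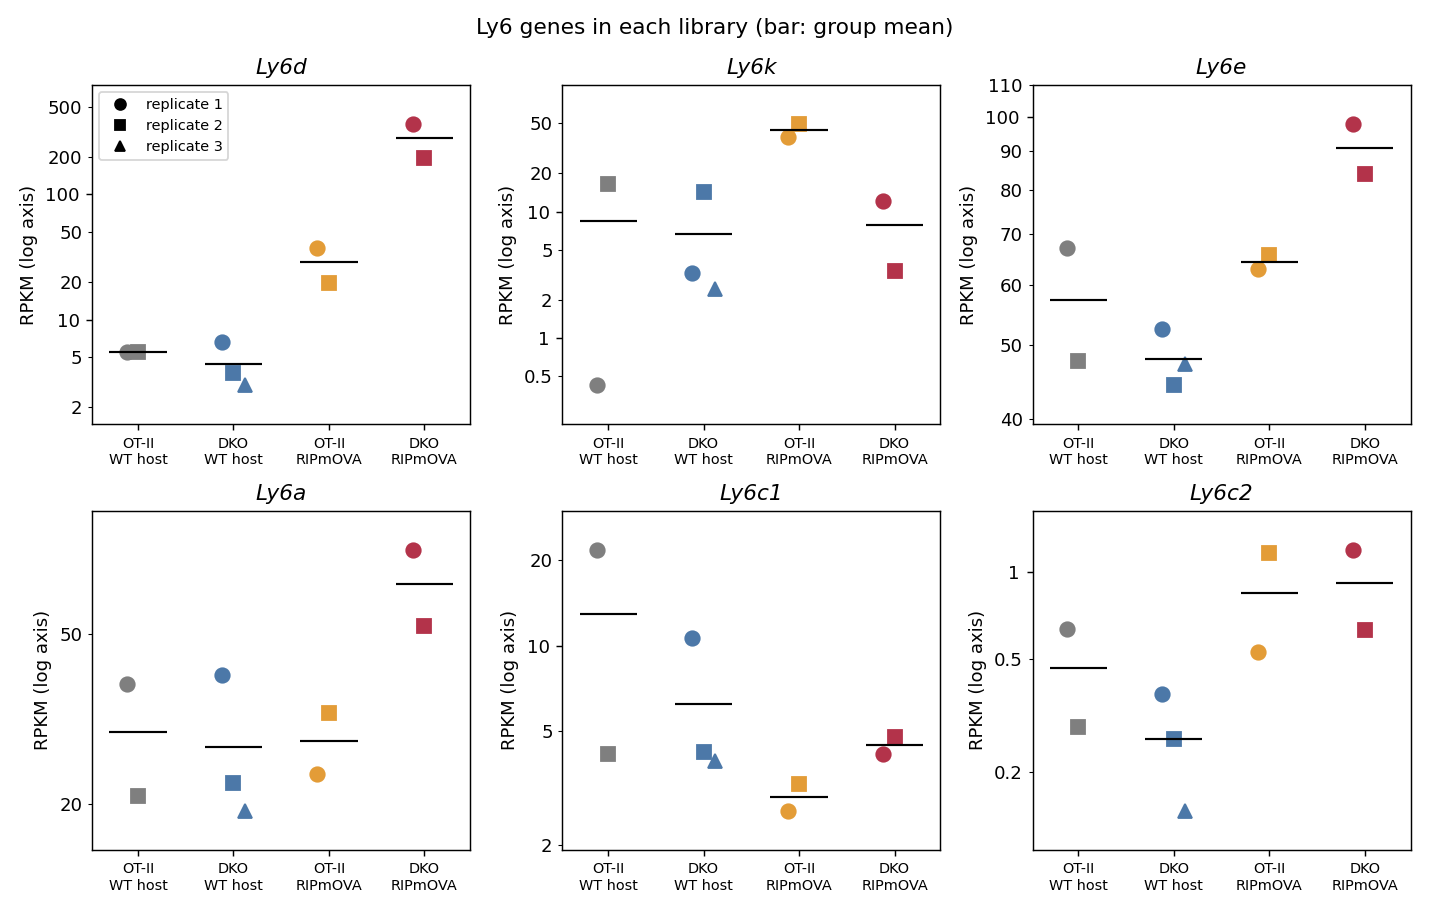
RPKM of the 6 Ly6 genes in each of the 9 libraries on log axes, by group, with a symbol for each replicate number and a bar at the group mean. Ly6d runs from 3.00 to 365 RPKM with RIPmOVA libraries above all WT-host libraries, whereas Ly6k spans 0.427 to 16.4 RPKM within the OT-II libraries of WT hosts alone.

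The 5 other members were compared across all 11569 genes that reached 1 RPKM in at least 2 libraries. A gene was called at a limma adjusted p of 0.05 or less with a log2 fold change of at least 1 in either direction. By this rule 0 of the 5 were called for the host effect in OT-II cells, where 1.23% of all genes were called, and 0 of the 5 for the host effect in DKO cells, where 1.68% were called. Between genotypes 0 of the 5 were called in RIPmOVA hosts (1.07% of all genes) and 0 of the 5 in WT hosts (0.0605%). For the interaction, the host difference in DKO minus that in OT-II cells, 0 of the 5 were called (0.0173%). At an unadjusted limma p under 0.05 the counts were 2, 3, 2, 0 and 2 of the 5 in that order, with Ly6c2, which passed the filter only through RIPmOVA libraries, among the 3, and voom on the recovered reads also called 0 of the 5 in each comparison. With shares this low, a count of 0 of 5 is near the background in every comparison. The host comparisons share no library with each other, but each shares its libraries with the genotype comparisons.

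Ly6k, the nearest of the members to Ly6d, 33.3 kb away, had a like ratio between hosts in OT-II cells and not in DKO cells. The RIPmOVA mean was 5.24 times the WT mean in OT-II cells, against 5.19 for Ly6d. In DKO cells it was 1.17 times the WT mean, against 63.1 for Ly6d. Ly6k was 0.427 and 16.4 RPKM in OT-II and 3.26, 14.2 and 2.42 RPKM in DKO libraries of WT hosts. In RIPmOVA hosts it was 39.1 and 49.1 RPKM in OT-II and 12.1 and 3.41 RPKM in DKO libraries. OT-II cells from RIPmOVA hosts thus held the 2 highest values of the 9, and the DKO libraries of RIPmOVA hosts lay inside the range of the WT-host libraries. These levels rest on 6 to 1076 reads, and the lowest, 6 reads in OT-II replicate 1 of WT hosts, is close to the floor of 3 reads.

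The host difference of Ly6k in OT-II cells was 3.48 (SE 1.22, limma adjusted p = 0.22) on the log2 scale, and in DKO cells it was 0.37 (SE 1.11, limma adjusted p = 0.89). Between genotypes of RIPmOVA hosts it was -2.65 (SE 1.22, limma adjusted p = 0.25), with the DKO library 3.22 and 14.4 times lower than its OT-II partner in chimeras 1 and 2. None of these passed, and the spread between replicates was wide. The host difference in OT-II cells passed only without OT-II replicate 2 of WT hosts, at 5.58 (limma adjusted p = 0.019, with a range of 0.019 to 0.78 over all alternatives). Without OT-II replicate 1 of WT hosts, the library with 6 reads, the difference of Ly6k between genotypes in WT hosts turned from 0.46 to -1.64.

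The genotype order of Ly6k in RIPmOVA hosts was the opposite of that of Ly6d in both chimeras. The ratio of Ly6k to Ly6d RPKM was 1.04 and 2.5 in OT-II libraries of RIPmOVA hosts and 0.0332 and 0.0173 in DKO libraries of those hosts. In WT hosts this ratio ran from 0.0770 to 3.80, so it was not set apart there by genotype.

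**Figure D2:**
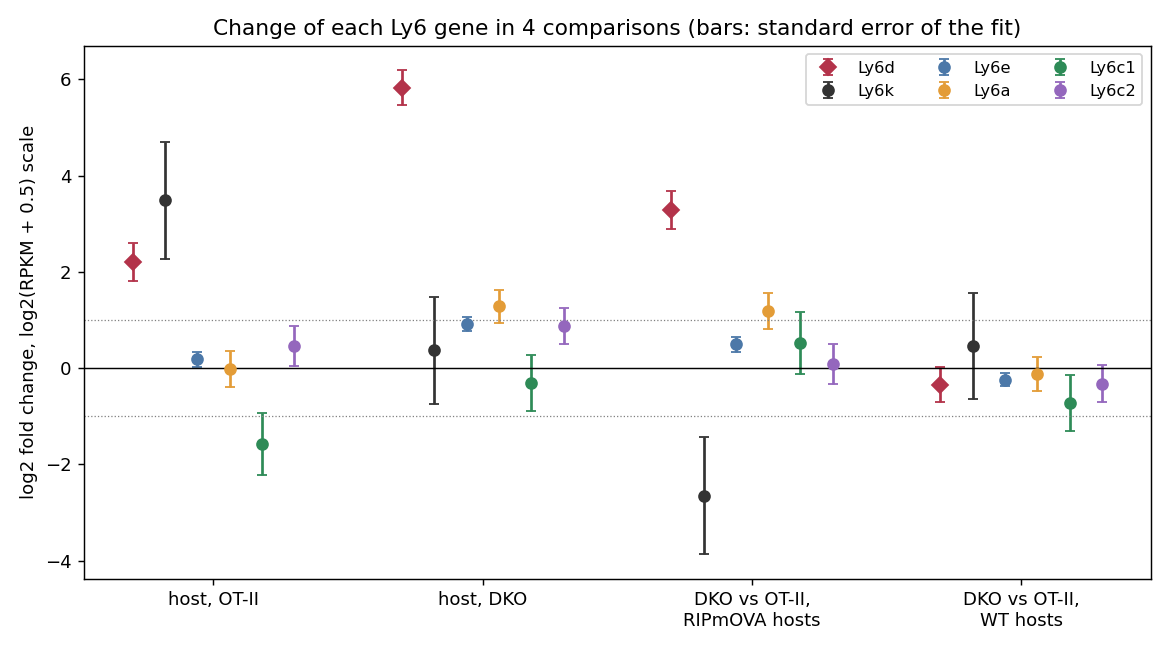
Log2 fold change of each Ly6 gene on the log2(RPKM + 0.5) scale in the 2 host and the 2 genotype comparisons, with the standard error of the fit as bars and dotted lines at 1 and -1. Ly6d (diamonds), which selected the set, stands at 2.20, 5.83 and 3.28 in the first 3 comparisons, and Ly6k has the widest bars.

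Ly6e, the thymic surface antigen Sca-2, had the narrowest range of the members, with its highest library at 2.20 times its lowest. It was 67.1 and 47.7 RPKM in OT-II and 52.5, 44.4 and 47.3 RPKM in DKO libraries of WT hosts, and 62.9 and 65.7 RPKM in OT-II libraries of RIPmOVA hosts. DKO libraries of RIPmOVA hosts had 97.8 and 84.0 RPKM, above the 7 others. The host difference in DKO cells was 0.91 (SE 0.14, limma adjusted p = 0.011), which passed the p limit and fell short of the fold limit. By adjusted p alone Ly6e was the 1 member of the 5 called in this comparison, where 3.35% of all genes were. It had an adjusted p of 0.05 or less in 18 of 22 alternative settings, in a range of 0.0022 to 0.11. The 4 others were the fits with no filter, with background as a covariate, without DKO replicate 3 of WT hosts and without DKO replicate 1 of RIPmOVA hosts.

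In OT-II cells the host difference of Ly6e was 0.18 (SE 0.16, limma adjusted p = 0.66). Between genotypes in RIPmOVA hosts it was 0.49 (SE 0.16, limma adjusted p = 0.13), with the DKO library at 1.55 and 1.28 times its OT-II partner. The interaction was 0.73 (SE 0.21, limma adjusted p = 0.46), so with all 9 libraries the host differences of Ly6e in the 2 genotypes were not shown to differ. Over the alternatives the interaction ran from 0.49 to 0.97. The host difference in DKO cells ran from 0.80 to 1.02, above the fold limit only without DKO replicate 2 of RIPmOVA hosts.

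Ly6a was also highest in DKO cells from RIPmOVA hosts, at 78.5 and 52.3 RPKM. It was 23.6 and 32.7 RPKM in OT-II libraries of RIPmOVA hosts, and 38.1 and 20.9 RPKM in OT-II and 40.0, 22.4 and 19.3 RPKM in DKO libraries of WT hosts. The first pair was above all others, and the other 3 groups overlapped. The host difference in DKO cells was 1.29 (SE 0.34, limma adjusted p = 0.087), that in OT-II cells -0.02 (SE 0.38, limma adjusted p = 0.99), and that between genotypes in RIPmOVA hosts 1.19 (SE 0.38, limma adjusted p = 0.13). The interaction was 1.31 (SE 0.51, limma adjusted p = 0.51).

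None of the Ly6a differences passed with all 9 libraries. Without OT-II replicate 1 of WT hosts the host difference in DKO cells was called at an unmoved 1.29, and without DKO replicate 1 of WT hosts it was called at 1.60. With both libraries of that chimera left out, an alternative added after the data were seen, Ly6a was called for the host effect in DKO cells (1.60, limma adjusted p = 0.0095, with a range of 0.0095 to 0.52 over all alternatives) and between genotypes in RIPmOVA hosts (1.19, limma adjusted p = 0.032, with a range of 0.032 to 0.66). This fit kept 1 OT-II library of WT hosts, which was assumed to vary like the other groups.

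Ly6c1 was highest in chimera 1 of the WT hosts, in both genotypes. It was 21.7 and 4.16 RPKM in OT-II and 10.6, 4.24 and 3.93 RPKM in DKO libraries of WT hosts, and 2.63 and 3.26 RPKM in OT-II and 4.15 and 4.78 RPKM in DKO libraries of RIPmOVA hosts. The other 7 libraries thus lay between 2.63 and 4.78 RPKM. The host difference in OT-II cells was -1.57 (SE 0.64, limma adjusted p = 0.31). It was -2.69 and called without OT-II replicate 2 of WT hosts, and -0.44 with chimera 1 of the WT hosts left out, so its size rested on which OT-II library stood for WT hosts. In DKO cells it was -0.31 (SE 0.59, limma adjusted p = 0.80), and 0.11 without DKO replicate 1 of WT hosts.

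Ly6c2, the near-identical copy, was the lowest member and passed the filter only through 1 library of each genotype from RIPmOVA hosts, so the filter itself favoured a higher level in those hosts and its host differences are given as a description. It was 0.635 and 0.288 RPKM in OT-II and 0.376, 0.261 and 0.147 RPKM in DKO libraries of WT hosts. It was 0.528 and 1.17 RPKM in OT-II and 1.2 and 0.630 RPKM in DKO libraries of RIPmOVA hosts, with 16 to 123 reads per library overall. The log2 host difference was 0.87 (SE 0.38) in DKO and 0.47 (SE 0.42) in OT-II cells, neither of which was called.

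Groups whose libraries do not overlap were common at this sample size. Of the 5 members other than Ly6d, 2 did not overlap between hosts in OT-II cells (Ly6k higher and Ly6c1 lower in RIPmOVA hosts), where 41.6% of all genes did not, and 3 did not overlap between hosts in DKO cells (Ly6a, Ly6c2 and Ly6e, all higher, with Ly6c2 kept only through RIPmOVA libraries), against 40.0% of all genes. Between genotypes in RIPmOVA hosts 4 of the 5 did not overlap, with Ly6a, Ly6c1 and Ly6e higher and Ly6k lower in DKO libraries, against 59.0% of all genes. In WT hosts it was 0 of the 5, against 20.8% of all genes.

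Chimera 1 of the WT hosts lay above the other WT-host libraries for 5 of the 6 members in both genotypes, as it did for 9.9% of all genes kept. Its OT-II and DKO libraries had 38.1 and 40.0 RPKM of Ly6a, against 19.3 to 22.4 RPKM in the 3 other WT-host libraries. They had 21.7 and 10.6 RPKM of Ly6c1, against 3.93 to 4.24 RPKM. Ly6d, Ly6e and Ly6c2 were also higher in both, with means 1.49, 1.29 and 2.18 times those of the 3 others, and Ly6k was not. For Ly6d, which selected the set, the gap was small, with 5.54 RPKM in the OT-II library against 5.47 RPKM in the highest of the 3 others.

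Genes that interferons induce moved with this chimera. The summed RPKM of 30 interferon-stimulated genes was 1109 in its OT-II and 1443 in its DKO library, against 783 to 850 in the 3 other WT-host libraries. Among the 4 RIPmOVA libraries it was 867 and 813 in OT-II and, above both, 922 and 1001 in DKO cells. Of these 30 genes, 22 (73.3%) were higher in both libraries of chimera 1 than in the 3 others, against 9.9% of all genes kept. This chimera was singled out after its values were seen, and the part of interferon in the levels of Ly6a, Ly6c1 and Ly6e was not tested. Over the comparisons themselves 0 of the 30 genes were called by limma or by voom. At an unadjusted limma p under 0.05 the count was 1 for the host effect in OT-II cells, 3 in DKO cells, 3 between RIPmOVA genotypes and 2 between WT-host genotypes. The median log2 difference of the 30 was -0.15, 0.00, 0.20 and 0.13 in that order, and that of all genes was -0.02, 0.03, 0.04 and 0.01.

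**Figure D3:**
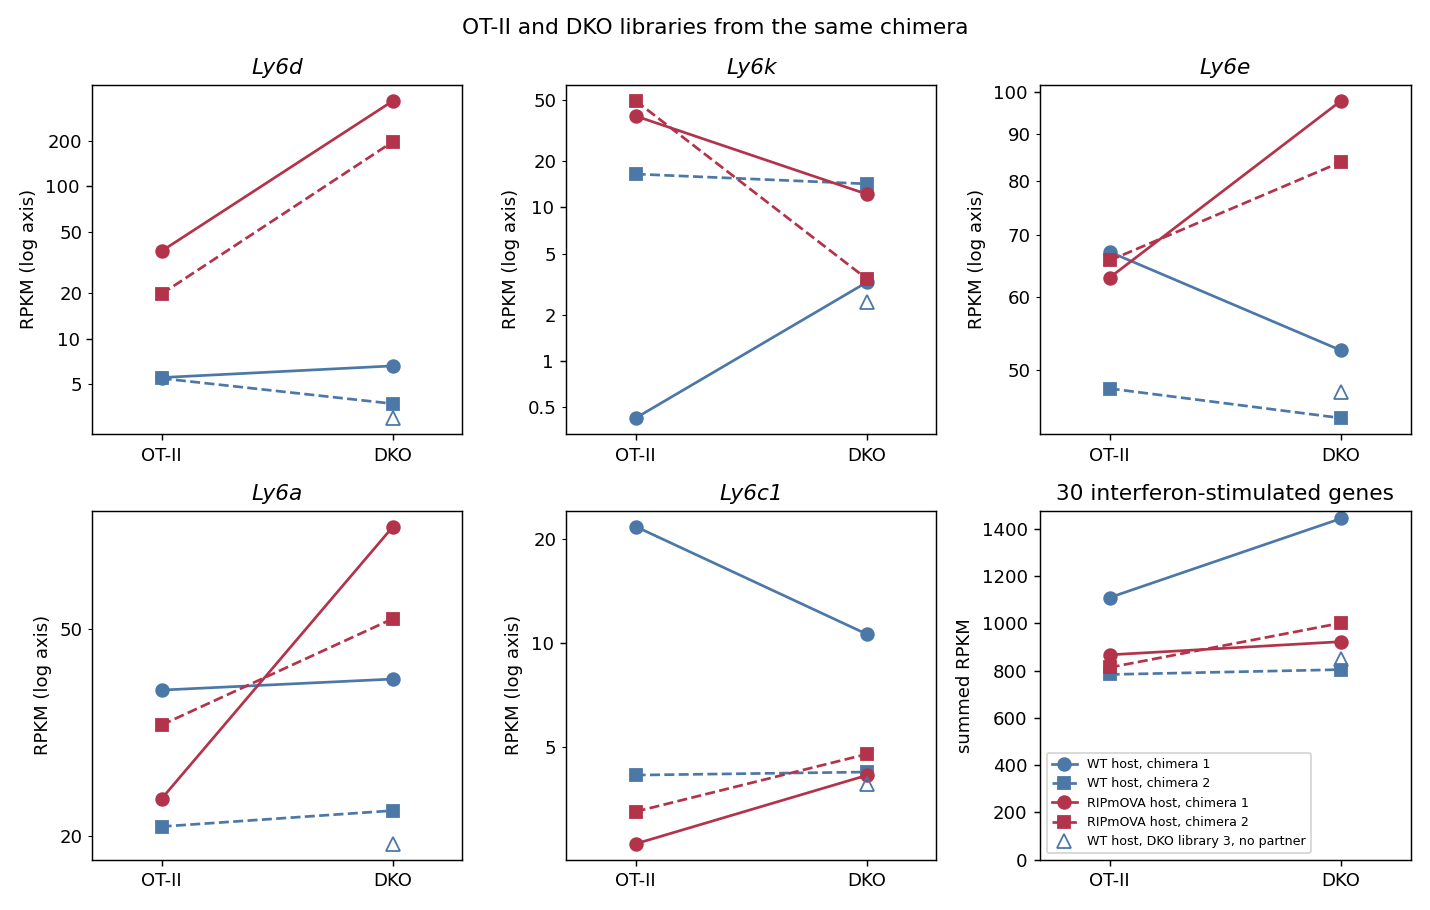
OT-II and DKO libraries of the same host mouse joined by lines, in RPKM on log axes for 5 Ly6 genes and as the summed RPKM of 30 interferon-stimulated genes on a linear axis from 0. Ly6d in RIPmOVA hosts (red) is 9.72 and 10.02 times higher in the DKO library and Ly6k is lower in both, and chimera 1 of the WT hosts (solid blue) lies highest among WT-host chimeras for Ly6a, Ly6c1, Ly6e and the interferon-stimulated sum.

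To compare levels between genes, RPKM was rescaled to the length of the merged exons of each gene, because the deposited lengths of genes with several isoforms were up to 3.08 times longer (Ly6e). On this per-length scale, the order in WT hosts was Ly6e (means of 177 in OT-II and 148 in DKO cells), Ly6a (84.5 and 78.1), Ly6c1 (25.4 and 12.3), Ly6k (9.20 and 7.23), Ly6d (5.51 and 4.45) and Ly6c2 (0.735 and 0.416). Ly6e, Ly6a and Ly6c1 were in this order without overlap, whereas Ly6c1 and Ly6k overlapped, as did Ly6k and Ly6d. In OT-II cells from RIPmOVA hosts the order was Ly6e (198), Ly6a (80.6), Ly6k (48.2), Ly6d (28.6), Ly6c1 (5.79) and Ly6c2 (1.35), and no 2 neighbours overlapped. In DKO cells from RIPmOVA hosts Ly6d (281, from 197 to 365) and Ly6e (280.3, from 259 to 302) did not differ beyond their spread, and Ly6d and Ly6a (187, from 149.8 to 225) overlapped. Ly6c1 (8.77), Ly6k (8.50) and Ly6c2 (1.46) followed, the first pair overlapping.

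Other genes of the Ly6/uPAR family were mostly low in these cells. Of 39 in the table, 28 stayed under 1 RPKM in every library, 8 reached 1 RPKM in at least 2 libraries, and 4 had at most 3 reads in any library. For the host effect in OT-II cells, where 1.23% of all genes were called, 0 of the 8 rose and 1 fell, Lypd6b (log2 fold change -1.30, SE 0.24, limma adjusted p = 0.031), at 11.9 and 9.01 RPKM in WT and 3.73 and 4.10 RPKM in RIPmOVA hosts. Its call was lost under voom, with the replicate number as a block across hosts (limma adjusted p = 0.091), and without OT-II replicate 1 of WT hosts, any 1 of the DKO libraries of WT hosts or either OT-II library of RIPmOVA hosts.

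Plaur, the urokinase receptor and a GPI-anchored family member on chromosome 7, was higher with the host in DKO cells (log2 fold change 2.87, SE 0.22, limma adjusted p = 0.00037), and it was higher in DKO than in OT-II cells from RIPmOVA hosts (1.91, SE 0.24, limma adjusted p = 0.0071). It was 0.645 and 0.300 RPKM in OT-II and 0.521, 0.754 and 0.499 RPKM in DKO libraries of WT hosts. It was 1.69 and 1.54 RPKM in OT-II and 7.80 and 7.10 RPKM in DKO libraries of RIPmOVA hosts, so the groups were in the order seen for Ly6d. Plaur passed the filter only through RIPmOVA libraries, so its host difference had to be large and its call between hosts is given as a description. The second call was lost with a filter at 5 RPKM, with background as a covariate and without any 1 of the 4 libraries of RIPmOVA hosts. In OT-II cells the host difference of Plaur was 1.14 (SE 0.24, limma adjusted p = 0.054). By limma, Plaur was the 1 gene of the 8 called for the host effect in DKO cells (1.68% of all genes) and between genotypes in RIPmOVA hosts (1.07%). Voom called 2 of the 8 for the host effect in DKO cells, Plaur and Lynx1, and 1, Plaur, between genotypes. The median log2 difference of the 8 was -0.60 for the host effect in OT-II cells, 0.64 for that in DKO cells and 1.07 between genotypes in RIPmOVA hosts, where that of all genes was -0.02, 0.03 and 0.04. Background moved with these values. Of the 8, 4 (Ly6g5c, Pate1, Pate3 and Pate4) reached 1 RPKM in none but the 4 libraries with most background. The summed RPKM of all 39 was 29.7 and 26.1 in the 2 such libraries of WT hosts against 15.6 to 19.99 in the 3 others, and 32.98 and 36.8 in DKO against 17.3 and 11.4 in OT-II libraries of RIPmOVA hosts. The part of background in the family's shift was not tested. In WT hosts 0 of the 8 were called between genotypes by limma or voom, with 0 at an unadjusted p under 0.05.

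Genes of the GPI anchor pathway, such as Piga and Pgap1, were called in no comparison. Of the 30 genes present, 29 were kept, and the count was 0 in each of the 5 comparisons by limma and by voom, with 2 to 6 at an unadjusted limma p under 0.05 except between genotypes in WT hosts, where it was 0. Their median log2 difference was -0.03 for the host effect in OT-II cells, 0.00 for that in DKO cells and 0.11 between genotypes in RIPmOVA hosts, and their summed RPKM was 265 to 282 in all 9 libraries.

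Other GPI-anchored proteins of the T cell surface behaved unequally. Of 10 kept, 3 rose and 1 fell with the host in OT-II cells (1.23% of all genes were called), and 3 rose and 0 fell in DKO cells (1.68%). Voom called 3 of these 4 and 2 of these 3, without Nt5e in either. Prnp, the prion protein, rose in both (1.46, SE 0.15, limma adjusted p = 0.0021 and 1.76, SE 0.14, limma adjusted p = 0.00037), as did Cd24a, a marker of immature thymocytes (1.23, SE 0.22, limma adjusted p = 0.028 and 1.11, SE 0.20, limma adjusted p = 0.019). Nt5e, the ectoenzyme CD73, was called higher in both (2.67, SE 0.50, limma adjusted p = 0.032 and 3.42, SE 0.45, limma adjusted p = 0.0048). It was 0.0710 to 0.422 RPKM in WT and 3.39 to 12.9 RPKM in RIPmOVA hosts and passed the filter only through the latter, so its host difference had to be large and its calls are a description. Thy1, the pan-thymocyte antigen, fell in OT-II cells (-1.18, SE 0.22, limma adjusted p = 0.030). With the replicate number as a block across hosts, the limma adjusted p was 0.091 for Cd24a, 0.091 for Nt5e and 0.058 for Thy1 in OT-II cells and 0.084 for Cd24a in DKO cells, so these 4 calls were lost. The calls of Cd24a, Nt5e and Thy1 in OT-II cells were each lost without OT-II replicate 1 or DKO replicate 3 of WT hosts or either OT-II library of RIPmOVA hosts. Those of Nt5e and Thy1 were lost also without DKO replicate 1 or 2 of WT hosts, and that of Thy1 without OT-II replicate 2 of WT hosts. That of Cd24a in DKO cells was lost without DKO replicate 1 or 3 of WT hosts or DKO replicate 1 of RIPmOVA hosts, while both calls of Prnp held in every setting run. Between genotypes 0 of the 10 were called in either host by limma or voom, with 3 in RIPmOVA hosts and 1 in WT hosts at an unadjusted limma p under 0.05. The median log2 difference of the 10 was -0.11 for the host effect in OT-II cells and -0.13 for that in DKO cells, and that of all genes was -0.02 and 0.03.

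Genes of thymocyte maturation gave the stage of the sorted cells beside these values. Of 17 kept, 2 rose and 0 fell with the host in OT-II cells (1.23% of all genes were called), and 3 rose and 1 fell in DKO cells (1.68%). Nt5e, which passed the filter only through RIPmOVA libraries, was 1 of those that rose in each, so its part in both counts is a description. S1pr1, the receptor used to leave the thymus, rose with the host in DKO cells (1.13, SE 0.11, limma adjusted p = 0.0012) and was higher in DKO than OT-II cells from RIPmOVA hosts (1.26, SE 0.12, limma adjusted p = 0.0020), at 95.3 and 110.5 RPKM against 42.0 and 43.2 RPKM. Il7r, which encodes the interleukin 7 receptor, fell in DKO cells (-1.64, SE 0.20, limma adjusted p = 0.0034). Cd24a and Nt5e, named above, were the others called. Voom, which did not call Nt5e, called 1 of the 2 in OT-II and 3 of the 4 in DKO cells. The median log2 difference of the 17 was -0.19 for the host effect in OT-II cells and 0.04 for that in DKO cells. Between genotypes S1pr1 was the 1 gene called in RIPmOVA hosts, and 0 were called in WT hosts by limma or voom, with 5 at an unadjusted limma p under 0.05. The call of S1pr1 between genotypes was lost with background as a covariate. The part of maturation in the Ly6 levels was not tested.

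Antigen-presenting cell markers summed to more in RIPmOVA hosts, but not every marker was higher there. The 8 markers summed to 10.8 to 25.4 RPKM in WT hosts, 48.1 and 61.7 RPKM in OT-II and 30.4 and 36.2 RPKM in DKO libraries of RIPmOVA hosts. Cd74, the invariant chain, made up most of the sum and rose in OT-II (1.56, SE 0.21, limma adjusted p = 0.0084) and DKO cells (1.70, SE 0.20, limma adjusted p = 0.0023). Lyz2 was 0.879 to 18.7 RPKM, with at most 7.54 RPKM in WT hosts and its highest value in a RIPmOVA library. Xcr1 was at most 1.035 RPKM in WT and 1.505 RPKM in RIPmOVA hosts, and Csf1r at most 0.494 and 0.578 RPKM. Cd68, Itgax and Clec9a had their highest values in WT hosts, at 1.487, 0.158 and 0.127 RPKM. In RIPmOVA hosts they were at most 1.418, 0.043 and 0.071 RPKM. H2-Ab1 was 2.58 and 2.15 RPKM in OT-II libraries of RIPmOVA hosts and at most 0.586 RPKM in the 7 others, so it passed the filter only through that group, both of its calls rest on that group and they are given as a description. It was higher with the host in OT-II cells (1.61, SE 0.33, limma adjusted p = 0.049) and was lower in DKO than OT-II cells from RIPmOVA hosts (-1.71, SE 0.33, limma adjusted p = 0.036), the opposite order to Ly6d. With the chimera as a block the latter call of H2-Ab1 was lost (limma adjusted p = 0.13), and with the replicate number as a block across hosts the former was (limma adjusted p = 0.11). It was lost also without any 1 library of RIPmOVA hosts and without DKO replicate 1 or 3 of WT hosts, the former without any 1 library except DKO replicate 2 of WT hosts, and that of Cd74 in OT-II cells without either OT-II library of RIPmOVA hosts. Neutrophil markers, for which Ly6c is often used beside Ly6g, were each under 1 RPKM in all libraries. Of plasmacytoid dendritic cell markers, Siglech was at most 0.412 RPKM, and Ccr9, which thymocytes also express, made up nearly all of the sum of 37.6 to 65.8 RPKM. Platelet and erythroid markers summed to 0.172 to 14.4 RPKM, the most in WT hosts. The part of these cells in the Ly6 values was not tested.

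Around the cluster, the table held 25 other genes within 500 kb of the outermost members, and 5 of them were kept: Arc, Jrk, Them6, Lynx1 and Ly6l. Called genes among the 5 numbered 0 in every comparison by limma, with at most 2 at an unadjusted p under 0.05, and voom called 1 (Lynx1) for the host effect in DKO cells. Lynx1, which encodes a Ly6-type modulator of nicotinic receptors next to Ly6d, had the lowest adjusted p of them and is named for that, after its values were seen. It was 2.55 and 4.26 RPKM in OT-II and 2.44, 2.43 and 2.39 RPKM in DKO libraries of WT hosts, and 2.69 and 2.24 RPKM in OT-II and 5.42 and 4.51 RPKM in DKO libraries of RIPmOVA hosts. Its host difference in DKO cells was 0.90 (SE 0.19, limma adjusted p = 0.040), short of the fold limit, and that between genotypes in RIPmOVA hosts was 0.88 (SE 0.21, limma adjusted p = 0.070).

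**Figure D4:**
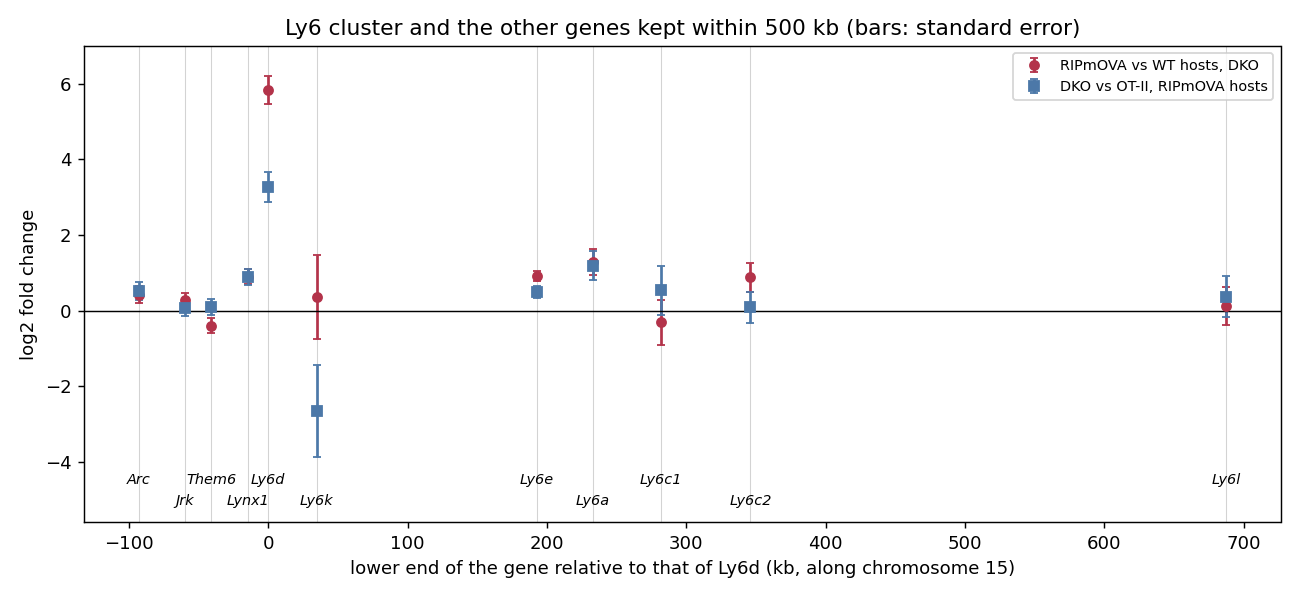
Log2 fold change of the 6 Ly6 genes and the 5 other genes kept within 500 kb, against the distance of each gene's lower end from that of Ly6d in kb, for the host difference in DKO cells (circles) and the genotype difference in RIPmOVA hosts (squares), with standard errors. Ly6d stands at 5.83 and 3.28, while its neighbours Lynx1 and Ly6k stand at 0.90 and 0.37 in the first comparison.

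The 6 genes whose levels over the 9 libraries were most like those of Ly6d, by Pearson r of log2(RPKM + 0.5) among 11568 genes, were Cxcr5 (r = 0.985), Pou2f2 (0.978), Gramd1b (0.977), Tagap (0.975), Decr1 (0.972) and Plaur (0.972). These are descriptions over libraries that share hosts and groups. Cxcr5 and Pou2f2 passed the filter only through the DKO libraries of RIPmOVA hosts, where Ly6d was highest, and Plaur only through RIPmOVA libraries. The filter itself therefore favoured a likeness to Ly6d for these genes. Tagap, a GTPase-activating protein of activated T cells, was highest of them at 116 and 81.2 RPKM in DKO and 37.6 and 38.3 RPKM in OT-II libraries of RIPmOVA hosts, against 8.86 to 10.3 RPKM in WT hosts. Cxcr5, a chemokine receptor of follicular T and B cells, was at most 0.205 RPKM in WT hosts, 0.575 and 0.474 RPKM in OT-II and 2.48 and 1.41 RPKM in DKO libraries of RIPmOVA hosts. Pou2f2, which encodes the transcription factor Oct-2 of lymphocytes, had a like range, from 0.0570 to 2.37 RPKM. None of the 6 is a neighbour of Ly6d in the cluster. Over the same libraries r with Ly6d was 0.916 for Ly6e, 0.785 for Ly6a, 0.721 for Ly6c2, 0.227 for Ly6k and -0.30 for Ly6c1.

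**Figure D5:**
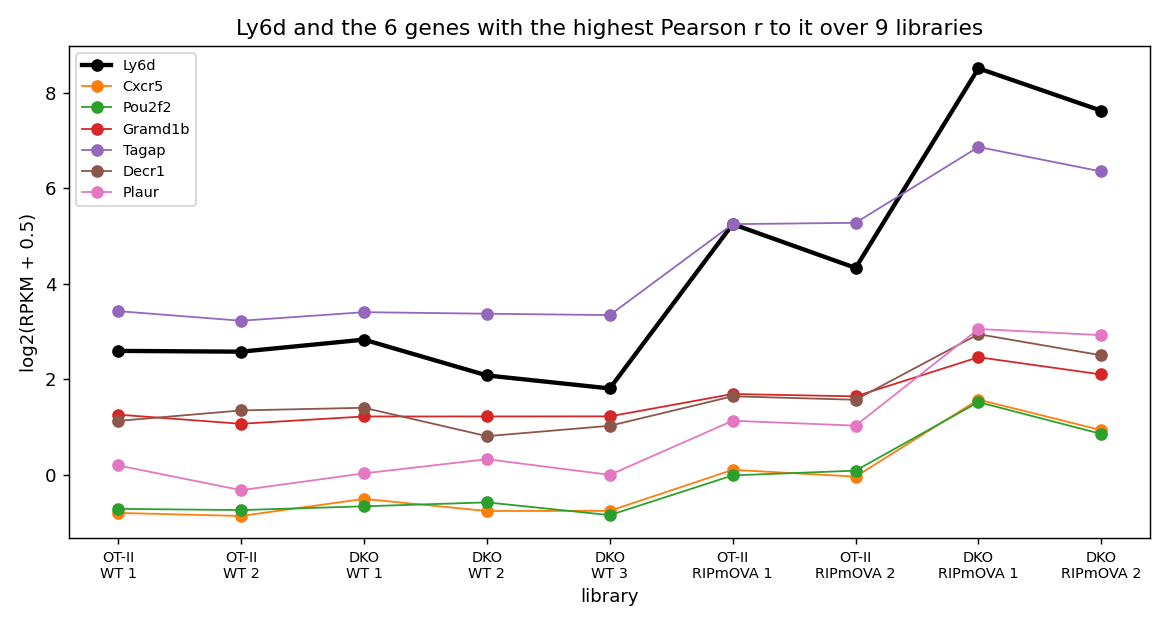
Level of Ly6d (thick black) and of the 6 genes with the highest Pearson r to it, as log2(RPKM + 0.5), in each of the 9 libraries. Each of the 7 is at its lowest in the 5 WT-host libraries and at its highest in the 2 DKO libraries of RIPmOVA hosts, with Ly6d covering the widest range. Cxcr5 and Pou2f2 passed the filter only through those 2 DKO libraries.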

How the data were processed

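RNA was measured in 9 libraries of sorted thymocytes in 4 groups given by the labels. The authors made cDNA with SMART-seq v4, sequenced Nextera XT libraries with paired ends, aligned them to mm10 with STAR, removed duplicates and counted exonic reads per Entrez gene. From these the authors computed RPKM, scaled to exon length and exonic reads and rounded to 3 decimals, and deposited them. The versions of the aligner and the use of strand are not given in the sources used here.

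The members and gene lists were chosen with earlier results of these data known. Each was named by a fixed rule: all 6 members, list genes called in any comparison (at most 5 per list and comparison), called genes within 500 kb of the cluster and the 6 genes with the highest Pearson r to Ly6d. Read numbers were worked out from the spacing of low RPKM values (100% whole within 0.05 of a read), giving 15520000 to 25050000 reads per library, and 3 reads were taken as the floor. Floors reflect counting error alone. A listed marker gene is not reported here.

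The 11569 genes that reached 1 RPKM in 2 or more libraries were fitted as log2(RPKM + 0.5) by limma 3.58.1 in R 4.3.3 with group means and an intensity trend, and p-values are two-sided with Benjamini-Hochberg adjustment over all of them. Fold changes on this scale understate those of low genes. Since the unit is RPKM, a count model was used only as an alternative (voom). The fit was run on simulated reads that gave all genes the same spread and no chimera or background effect. Those settings do not cover genes such as Ly6k and Ly6c1, whose replicates varied widely. Same-numbered libraries of 1 host came from 1 chimera per the labels. The correlations of their deviations from group means were 0.0059 and -0.24 in WT and -0.079 in RIPmOVA hosts, and a chimera block was an alternative. Same-numbered libraries of different hosts share no mouse, and their correlations were 0.23 and 0.23 (equal by construction with 2 libraries a group) in OT-II and 0.10 and 0.23 in DKO cells. The other alternatives were a filter at 5 RPKM or none, median-of-ratios and quantile rescaling, a pseudocount of 0.1 or 1, the groups compared alone, no trend, adjusted p alone, a block on replicate number for hosts, background reads as a covariate and each library left out. With both libraries of WT-host chimera 1 left out, a setting was added after the data were seen. Coordinates and sequences come from the GENCODE annotation and genome of GRCm38, the build that mm10 names. Tables and plots were made with pandas 2.3.3, scipy 1.17.1, numpy 2.4.6 and matplotlib 3.10.9 (Python 3.11.15).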

Additional observations from a re-analysis of the deposited data

How the results depend on the processing

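The count of called members other than Ly6d was 0 of 5 in each of the 5 comparisons and kept that value in every alternative except the following. It was 1 (Ly6e) for the host effect in DKO cells by adjusted p alone. It was 1 (Ly6a) for that effect and 1 (Ly6a) between genotypes in RIPmOVA hosts without both libraries of WT-host chimera 1. With 1 library left out, it ran from 0 to 2 for the host effect in OT-II cells (2, Ly6c1 and Ly6k, without OT-II replicate 2 of WT hosts), from 0 to 1 for the host effect in DKO cells and stayed at 0 in the others. Calls over all genes ran from 31 to 296 (host effect in OT-II cells), 87 to 259 (in DKO cells), 18 to 220 (genotype in RIPmOVA hosts), 2 to 100 (in WT hosts) and 0 to 159 (interaction), so the background shares move with the setting. The Ly6d differences, which were not tested, kept their sign, from 1.75 to 2.66 (host, OT-II), 5.38 to 6.27 (host, DKO), 2.82 to 3.74 (genotype, RIPmOVA hosts) and 3.17 to 4.08 (interaction).

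Differences of members that were not called changed sign as follows, and the cause was not tested. With both libraries of WT-host chimera 1 left out, Ly6a was 0.40 for the host effect in OT-II cells, Ly6c1 was 0.11 for that in DKO cells and Ly6k was -1.37 between genotypes in WT hosts. Under voom Ly6a was 0.021 for the host effect in OT-II cells, with background as a covariate Ly6c1 was -0.18 between genotypes in RIPmOVA hosts, and under quantile normalization Ly6c2 was -0.55 there and -0.19 for the interaction. With 1 library left out, the host effect in OT-II cells ran from -0.45 to 0.40 (Ly6a) and -0.061 to 0.43 (Ly6e), and that in DKO cells from -0.55 to 0.11 (Ly6c1) and -0.48 to 1.22 (Ly6k). The genotype difference in WT hosts ran from -0.55 to 0.31 (Ly6a), -1.85 to 0.40 (Ly6c1), -0.48 to 0.0057 (Ly6e) and -1.64 to 2.55 (Ly6k), and that in RIPmOVA hosts from -0.27 to 0.43 (Ly6c2).

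With the chimera as a replicate block Ly6a was 0.084 between genotypes in WT hosts, H2-Ab1 lost its genotype call, calls over all genes in WT hosts went from 7 to 2, and no other call of a gene named here changed. Replicate numbers across hosts mark no shared mouse, but same-numbered libraries deviated together (r of 0.10 to 0.23). With that number as a replicate block Ly6k was -0.079 for the host effect in DKO cells, the host calls of Cd24a, Nt5e, Thy1, Lypd6b and H2-Ab1 in OT-II and of Cd24a in DKO cells were lost, and calls over all genes went from 142 to 78 in OT-II and from 194 to 110 in DKO cells. Of the Ly6 members, Ly6k at 6 reads and Ly6c2 at 16 reads in their lowest library were the ones that depth limited most. Groups of 2 or 3 libraries limited the rest.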
